A study of Mus musculus with 15 samples.

Results

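Tmsb4x and Tmsb10, the genes of thymosin beta 4 and thymosin beta 10, were followed through RNA sequencing of extracellular vesicles (EVs) from mouse blood. They are 2 of the 43472 gene symbols in the deposited count tables, and both were counted in all 15 libraries, as only 169 symbols were. The pair was chosen by abundance, since Tmsb4x is among the transcripts with the most reads in these EVs. The level and rank of each gene are therefore described without a test. Differences between conditions are tested, although the genes and tests were chosen with earlier results of these data known. Levels are given as CPM, the reads of a gene scaled to the same total of reads on genes in every library.

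Wild type (WT) mice gave 3 libraries, and dystrophic and hypertrophic mice gave 6 each. By the study's methods, WT mice were C57BL/6, mice of all 3 conditions were 3 to 6 months old, and the EVs of a few mice were pooled into each sample, so that a library is a pool and not an animal. Dystrophic mice were Sgcb null: they lack beta-sarcoglycan, a protein of the complex that anchors muscle fibers, and develop a limb-girdle type of muscular dystrophy. The labels give MAGIC F1, an engineered hepatocyte growth factor derivative, as the genotype of the hypertrophic mice, whereas the methods list these beside Mstn-null mice, which lack the muscle growth inhibitor myostatin, and the study's own account of its hypertrophic EVs names Mstn-null. The labels also name serum where the methods name plasma, and the sex of the mice is not given in the sources used here. Nothing in the labels says that libraries of a condition came from separate pools. The methods list too few Sgcb null mice for 6 separate dystrophic pools of the size they give. The tests here nevertheless treat every library as separate. All p-values rest on these libraries alone, and part of the spread between them may be technical.

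Beta-thymosins are short, highly charged peptides that bind actin monomers one to one and hold them back from polymerization. Thymosin beta 4 is the main monomer-sequestering peptide of platelets and white blood cells and is released when platelets are activated, while thymosin beta 10 is a close relative that binds actin monomers in the same way. In muscle research, thymosin beta 4 is known for its effects on cell migration and repair.

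The coding sequences are shown because the reads of such similar genes can only be told apart where the genes differ. In the mm10 build, Tmsb4x (ENSMUSG00000049775.16) lies at chrX:167207093-167209315 on the minus strand, with its coding bases in 2 exon parts at chrX:167207937-167208036 and chrX:167207504-167207535. Tmsb10 (ENSMUSG00000079523.8) lies at chr6:72957347-72958748 on the minus strand, with coding parts at chr6:72957913-72958012 and chr6:72957621-72957652. The intronless Gm9844 (ENSMUSG00000091955.2) is coded at chr7:24862278-24862409 on the plus strand and is a near copy of Tmsb10. Each sequence runs 5′ to 3′ with its stop codon left out, and was read from the GENCODE M21 transcripts. Capitals mark the bases that differ between Tmsb4x and Tmsb10 in the first pair, and the bases of Gm9844 that differ from Tmsb10 in the last line.

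Tmsb4x: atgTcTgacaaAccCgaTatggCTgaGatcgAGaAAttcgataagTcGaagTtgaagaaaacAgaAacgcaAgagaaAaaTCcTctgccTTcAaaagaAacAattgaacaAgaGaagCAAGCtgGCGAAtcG
Tmsb10: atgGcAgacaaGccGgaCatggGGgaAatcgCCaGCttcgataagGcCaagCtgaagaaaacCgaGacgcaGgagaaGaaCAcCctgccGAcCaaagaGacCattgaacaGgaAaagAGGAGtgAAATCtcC
Gm9844: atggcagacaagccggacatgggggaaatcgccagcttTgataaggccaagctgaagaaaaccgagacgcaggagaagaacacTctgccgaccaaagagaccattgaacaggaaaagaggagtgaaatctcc

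Over the 132 coding bases, Tmsb4x and Tmsb10 were identical at 92 (69.7%), and the longest run of bases shared by their transcripts was 10. None of the 1362 windows of 50 bases in the Tmsb4x transcripts, 50 bases being a read, occurred in a transcript of another annotated gene. Tmsb10 and Gm9844 were identical at 130 of 132 coding bases (98.5%), with a shared run of 198 bases in their transcripts. Of the 521 windows in the 570-base Tmsb10 transcript whose coding sequence is shown, 331 (63.5%) also occurred in other annotated genes, chiefly Gm9844 with 265 windows and the pseudogene Gm3788 with 66. Gm9844 held 56 reads over 5 libraries and Gm3788 held 0. Each count table has a summary row for alignments that are not unique, kept apart from the genes. The counting settings are not given in the sources used here, so Tmsb10 counts are uncertain in a way that Tmsb4x counts are not. If reads from the shared windows went to that row, Tmsb10 levels and ranks here are too low. The ratio of Tmsb4x to Tmsb10 would then be too high, which was not tested. No other annotated gene overlapped the span of either gene on either strand.

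Libraries differed widely in depth. The shallowest, WT replicate 1, held 27227 reads on genes and the deepest, dystrophic replicate 6, held 32563362, so that the 3 counts that a count of 0 allows were worth between 0.0921 and 110 CPM. In 6 libraries (replicates 4, 5 and 6 of the dystrophic and 1, 2 and 3 of the hypertrophic mice) the title and the counts carry different library numbers, as if the 2 conditions had traded them. The labels set the grouping here, and the main tests between conditions were repeated without these 6. Correlations within a condition were not repeated without them. The counts of all 6 hypertrophic libraries, and of no others, carry the higher run of library numbers, so numbering and condition cannot be told apart there. The deleted gene Sgcb was at 0 in 14 libraries, WT included, and had 695 reads in hypertrophic replicate 3, and Mstn was at 0 in all 15, so neither checks the labels. Transcripts of the EV surface proteins Cd9, Cd63 and Cd81 summed to between 3924 and 33774 CPM per library.

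Tmsb4x was one of the leading transcripts in every library. In WT-derived EVs it had 67837 CPM in replicate 1, 48719 CPM in replicate 2 and 37903 CPM in replicate 3, from 1847, 377013 and 22799 reads. In dystrophic-derived EVs it ran from 11720 CPM in replicate 3 through a median of 20867 CPM to 60727 CPM in replicate 4. In hypertrophic-derived EVs it ran from 19031 CPM in replicate 4 through a median of 32615 CPM to 45139 CPM in replicate 1. The 3 conditions overlapped: 5 of 6 dystrophic and 4 of 6 hypertrophic libraries lay under the lowest WT library, and dystrophic replicate 4 lay above all but 1 WT library. As a share of all reads on genes, Tmsb4x took 5.15% ± 1.52 (SD, n = 3) in WT, 2.73% ± 1.87 (SD, n = 6) in dystrophic and 3.25% ± 1.03 (SD, n = 6) in hypertrophic libraries. Counting error was small beside this spread. In the shallowest library the 95% Wilson interval of the share was 6.49% to 7.09%, and intervals cover counting error only, because copies made by amplification are not independent molecules.

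Ranked by CPM, Tmsb4x stood between place 1 and place 7 in all 15 libraries, with a median of 3. It was first in hypertrophic replicate 1 and seventh in dystrophic replicate 2. Only 7 genes were ever ahead of it: the mitochondrial ribosomal RNAs mt-Rnr2 and mt-Rnr1, the hemoglobin genes Hbb-bs, Hba-a1 and Hba-a2, the translation elongation factor Eef1a1 and Yam1. With mitochondrial and hemoglobin genes left out, Tmsb4x was the first of all genes in 11 of 15 libraries and the second in the remaining 4. By mean CPM it was number 3 in WT, 4 in dystrophic and 3 in hypertrophic libraries.

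Tmsb10 had far fewer reads than Tmsb4x. In WT-derived EVs it had 36.7 CPM in replicate 1, 426 CPM in replicate 2 and 397 CPM in replicate 3. The value of replicate 1 came from 1 read, and its 95% Wilson interval ran from 6.48 to 208 CPM. In dystrophic-derived EVs Tmsb10 ran from 175 CPM in replicate 6 through a median of 317 CPM to 594 CPM in replicate 4. In hypertrophic-derived EVs it ran from 26.6 CPM in replicate 4, which held 12 Tmsb10 reads, through a median of 310 CPM to 438 CPM in replicate 3. The conditions overlapped almost completely, and the 2 low libraries were the only ones under 100 CPM. Tmsb10 ranked between place 261 and place 1093, with a median of 443.

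**Figure D1:**
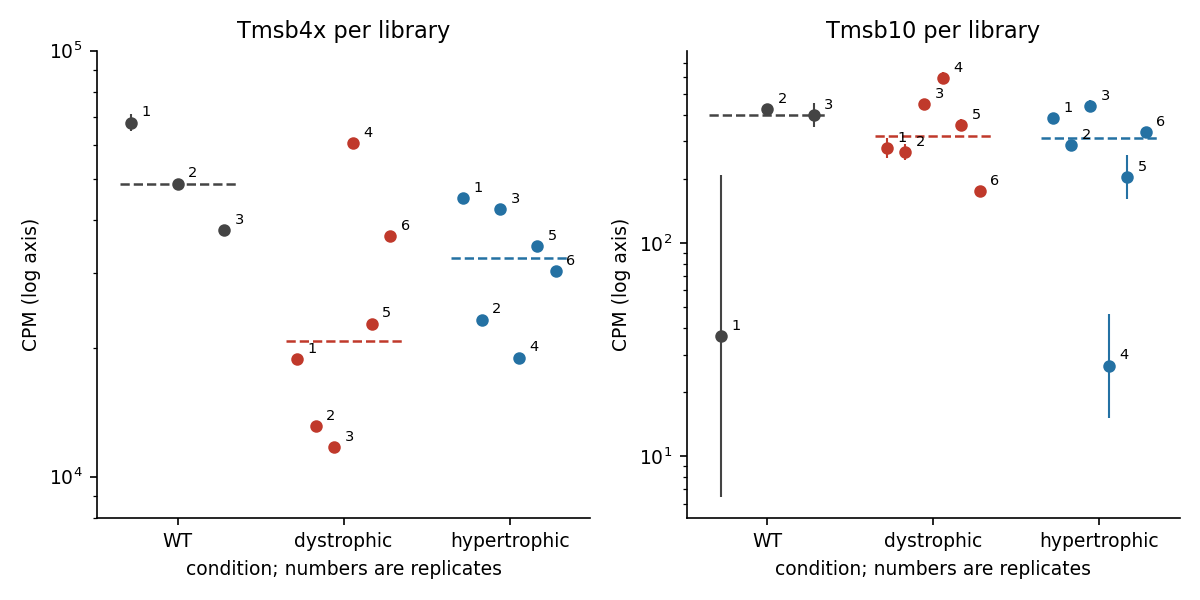
Level of Tmsb4x (left) and Tmsb10 (right) in each library, in CPM on log axes with different ranges; points are libraries labelled by replicate number, bars are 95% Wilson intervals (counting error only) and dashed lines are condition medians. Tmsb4x lies between 11720 and 67837 CPM with its 3 WT libraries high, and Tmsb10 lies between 175 and 594 CPM except in WT replicate 1 and hypertrophic replicate 4.

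Between libraries, Tmsb4x was more even than most genes counted in every library. The SD of its log2(CPM + 1) over 15 libraries was 0.76, the 40th smallest of 169, against a median of 1.01 over the 169 genes. For Tmsb10 this SD was 1.28, the 103rd smallest. The lowest and highest Tmsb4x levels differed 5.79-fold, and those of Tmsb10 22.3-fold, the lowest of which rests on 12 reads in hypertrophic replicate 4.

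Levels of different genes were compared per length. Divided by the length of the longest annotated transcript (864 bases for Tmsb4x, 690 for Tmsb10), the Tmsb4x level was a median of 77.4 times the Tmsb10 level. The ratio ranged from 20.9 in dystrophic replicate 3 to 1475 in WT replicate 1, where it rests on 1 Tmsb10 read. With only the windows that no other annotated gene shares as the length, an alternative chosen after seeing the data, the median ratio was 25.6. Per kilobase of longest transcript, the median level over 15 libraries was 40292 CPM for Tmsb4x and 481 CPM for Tmsb10, beside 1318 CPM for the cytoplasmic actin Actg1 and 813 CPM for the cytoplasmic actin Actb, the proteins whose monomers beta-thymosins bind. Profilin 1, which delivers actin monomers to growing filaments, had a median of 440 CPM per kilobase (Pfn1), and cofilin 1, which severs filaments, had 326 CPM per kilobase (Cfl1). In every library Tmsb4x was above Actb per kilobase, by 7.35 to 125 times. The 4 other beta-thymosin genes in the tables, Tmsb15a, Tmsb15b1, Tmsb15b2 and Tmsb15l, had 0 reads in all libraries. The spans of Tmsb15b1, Tmsb15b2 and Tmsb15l overlap on the minus strand of chromosome X. Reads there may not be assignable to a single gene, so a count of 0 does not show that their transcripts were absent.

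**Figure D2:**
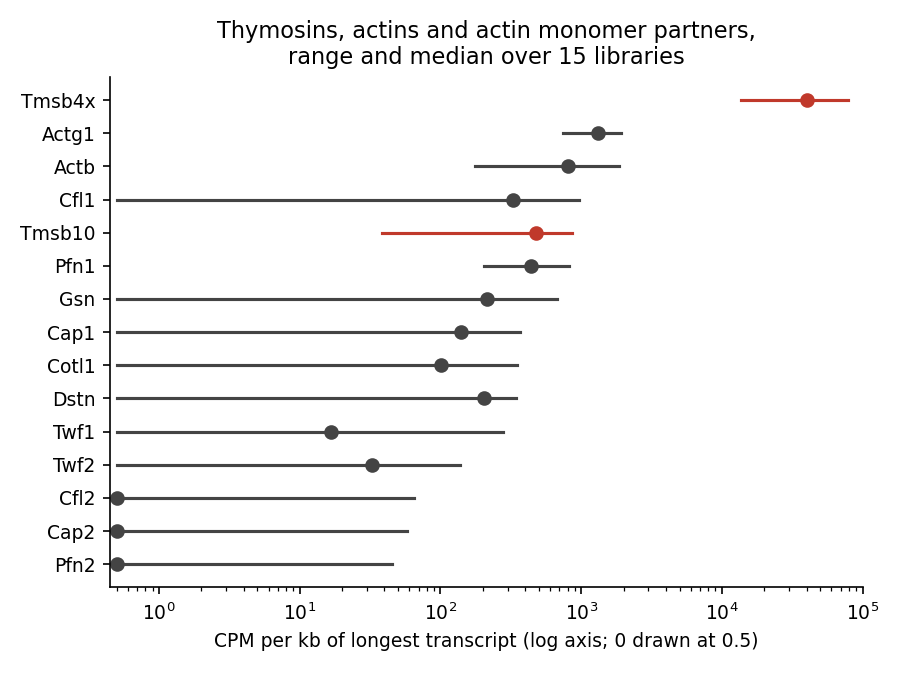
Level of the beta-thymosins (red), the cytoplasmic actins and other actin monomer partners (grey), in CPM per kilobase of longest transcript on a log axis; lines span the lowest to the highest of 15 libraries and points are medians, with 0 drawn at 0.5. Tmsb4x has the highest median, 40292 CPM per kilobase, and Tmsb10, at 481, lies among Cfl1, Pfn1 and the actins.

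The design asks whether EV transcripts differ between the conditions. Mean Tmsb4x was 51486 ± 15158 CPM (SD, n = 3) in WT, 27344 ± 18663 CPM (SD, n = 6) in dystrophic and 32535 ± 10323 CPM (SD, n = 6) in hypertrophic libraries, that is 0.531 and 0.632 of the WT mean. In the edgeR quasi-likelihood fit to all genes, its log2 fold change was -0.76 ± 0.24 (SE) for dystrophic against WT, with an unadjusted p = 0.0017 and a Benjamini-Hochberg adjusted p = 0.433. For hypertrophic against WT it was -0.87 ± 0.24 (SE), with an unadjusted p = 0.000342 and an edgeR adjusted p = 0.267. Neither change passed the threshold of 0.05, although the unadjusted p of Tmsb4x was number 5 and number 4 in order among the 6887 genes tested. The edgeR fit called 0.0145% of genes for dystrophic against WT and 0.029% for hypertrophic against WT, and 0 of the 2 thymosin genes. Both comparisons share the 3 WT libraries. On log2(CPM + 1), where the spread between libraries sets the error, the differences were -1.12 ± 0.44 and -0.69 ± 0.31 (SE). Each had p = 0.0952 in an exact two-sided permutation test, whose smallest possible p is 0.0238. The edgeR errors of 0.24 were smaller than these. The edgeR p-values of Tmsb4x and their places in order thus do not measure this spread alone.

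This call changed with the libraries whose numbers disagree. Without these 6, Tmsb4x was called lower in both comparisons with WT, with a log2 fold change of -1.96 in dystrophic (edgeR adjusted p = 1.58e-06) and of -1.31 in hypertrophic libraries (edgeR adjusted p = 0.0336), where 0.0794% of 3776 genes were called in each. Only 3 libraries stood against 3 there. No exact permutation test of the level was run on them, and its smallest possible p would be 0.1. With the 6 exchanged between the conditions, the values were -1.08 (edgeR adjusted p = 0.0514) and -0.60 (edgeR adjusted p = 0.486). Library size without TMM scaling gave -0.90 ± 0.18 (SE) for dystrophic against WT with edgeR adjusted p = 0.00131, where 0.0436% of genes were called. Leaving out WT replicate 1, the shallowest library, gave -0.98 for hypertrophic against WT with edgeR adjusted p = 0.0337. DESeq2 gave -0.85 ± 1.10 and -0.59 ± 1.10 (SE) with adjusted p = 0.904 and 0.96.

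Between hypertrophic and dystrophic libraries the sign of the Tmsb4x difference was not settled. Its log2 fold change was -0.11 ± 0.20 (SE; edgeR adjusted p = 1.0) and 0.26 without TMM scaling, while the difference in log2(CPM + 1) was 0.43 ± 0.42 (SE; exact permutation p = 0.32). The edgeR fit called 0.0145% of genes here and 0 of the 2 thymosin genes. The 95% interval of the edgeR value ran from -0.51 to 0.29. TMM scaling shifted the median log2 fold change of all tested genes by -0.19, -0.36 and -0.15 in the comparisons of dystrophic with WT, hypertrophic with WT and hypertrophic with dystrophic. Relative to that median, which was 1.38, 0.66 and -0.52, Tmsb4x was at -2.14, -1.53 and 0.41. The median is not a stable baseline against WT. Without WT replicate 2 it was 8.15 for dystrophic and 5.96 for hypertrophic libraries, and without WT replicate 3 it was 5.18 and 0.81.

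Tmsb10 gave no call in any comparison. Its mean was 287 ± 217 CPM (SD, n = 3) in WT, 353 ± 150 CPM (SD, n = 6) in dystrophic and 279 ± 147 CPM (SD, n = 6) in hypertrophic libraries. The log2 fold changes were -0.025 ± 1.81 (SE) for dystrophic against WT, -0.45 ± 1.78 for hypertrophic against WT and -0.43 ± 1.48 for hypertrophic against dystrophic, with edgeR adjusted p-values of 1.0 in each. The 95% intervals were wide, from -3.57 to 3.52 in the first comparison, so changes of several-fold in either direction were not detectable. In log2(CPM + 1) the first 2 differences were positive, 0.82 and 0.19 (exact permutation p = 0.524 and 0.905), the opposite sign to edgeR.

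**Figure D3:**
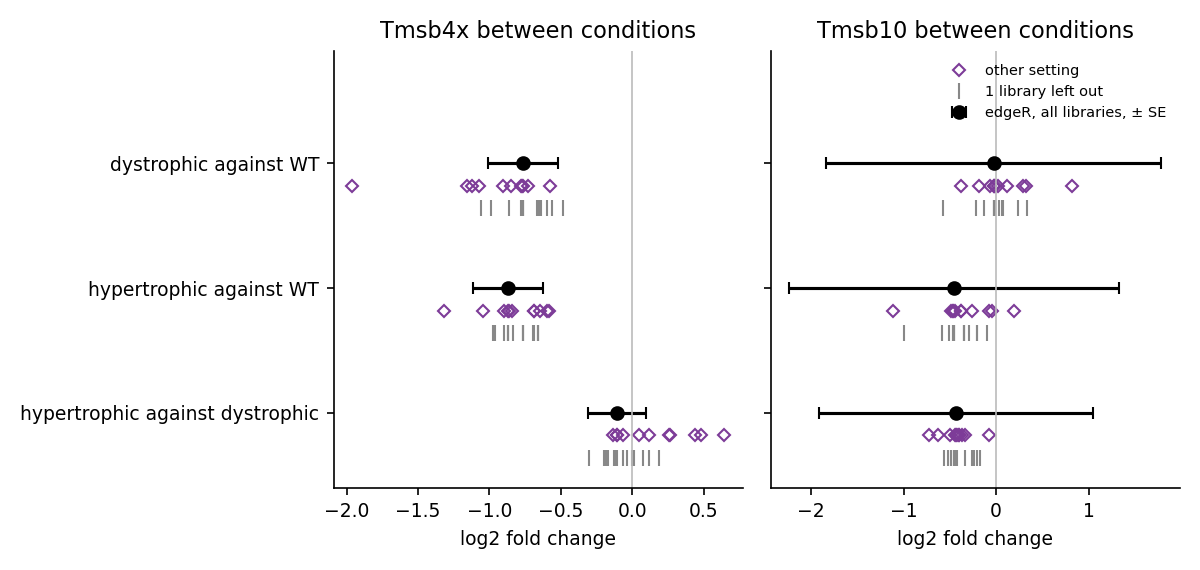
Log2 fold change of Tmsb4x (left) and Tmsb10 (right) in the 3 comparisons, first-named condition against the second; black points are the edgeR fit to all libraries with SE bars, purple diamonds other settings (the exact permutation difference included) and grey ticks fits with 1 library left out. Tmsb4x is below 0 against WT in every fit, from -1.96 to -0.49 in dystrophic libraries, while its hypertrophic against dystrophic values lie on both sides of 0.

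The balance of the 2 thymosins within a library needs no scaling to library size. Tmsb10 made up 0.0541%, 0.866% and 1.04% of the reads on both genes in WT replicates 1, 2 and 3. In dystrophic libraries its share ran from 0.473% in replicate 6 through a median of 1.49% to 3.68% in replicate 3, and in hypertrophic libraries from 0.14% in replicate 4 through a median of 0.933% to 1.21% in replicate 2. Of the dystrophic libraries, 4 lay above every WT and hypertrophic library, and replicates 4 and 6 lay among them. Mean shares were 0.653% ± 0.525 (SD, n = 3), 1.68% ± 1.11 (SD, n = 6) and 0.814% ± 0.396 (SD, n = 6). No difference passed an exact two-sided permutation test, adjusted over 6 tests of ratios: dystrophic against WT was 1.03 percentage points (p = 0.119, adjusted p = 0.214), hypertrophic against WT 0.161 (p = 0.595, adjusted p = 0.714) and hypertrophic against dystrophic -0.87 (p = 0.0736, adjusted p = 0.214). Without the 2 libraries with under 50 Tmsb10 reads, WT replicate 1 and hypertrophic replicate 4, an alternative chosen after seeing the data, the first difference was 0.732 and the last -0.735, and hypertrophic against WT was -0.0035. Without dystrophic replicate 3 the first was 0.632 and the last -0.471. Without the 6 libraries of disagreeing numbers they were 1.72 and -1.77, with exact permutation p = 0.1, the smallest that 3 against 3 libraries allow. The 3 shallowest libraries, WT replicate 1 and hypertrophic replicates 4 and 5, had shares of 0.0541%, 0.14% and 0.582%, and the part of depth in the share was not tested.

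**Figure D4:**
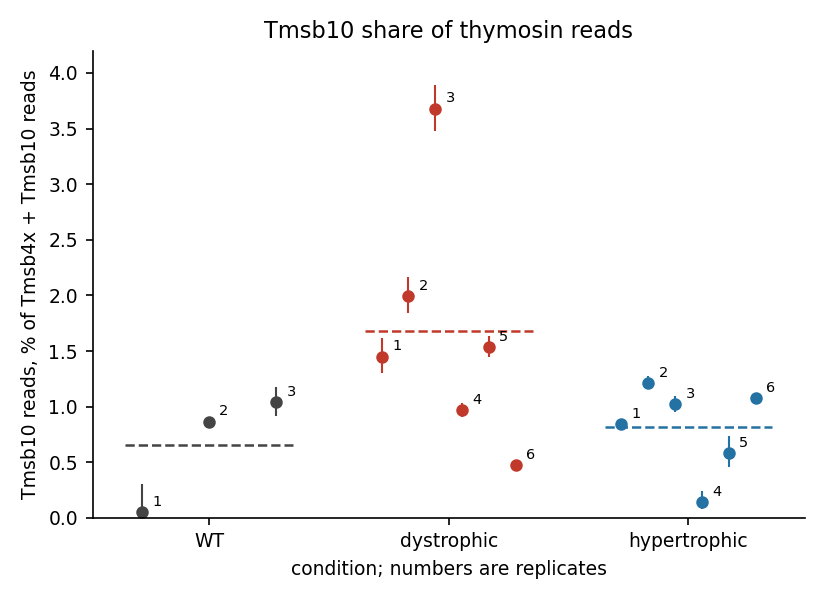
Tmsb10 reads as a percentage of Tmsb4x plus Tmsb10 reads in each library; points are libraries labelled by replicate number, bars are 95% Wilson intervals (counting error only) and dashed lines are condition means. Dystrophic replicates 1, 2, 3 and 5 lie between 1.45% and 3.68%, above every WT and hypertrophic library, of which the highest is at 1.21%.

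Tmsb4x was also set against Actb, which codes for beta-actin and was counted in every library. Tmsb4x had 30.8, 19.8 and 37.0 reads per Actb read in WT replicates 1, 2 and 3. In dystrophic libraries this ran from 3.31 in replicate 3 through a median of 13.6 to 30.7 in replicate 4, and in hypertrophic libraries from 15.2 in replicate 2 through a median of 25.3 to 56.1 in replicate 4. The same 4 dystrophic libraries, replicates 1, 2, 3 and 5, had fewer Tmsb4x reads per Actb read than any WT or hypertrophic library. This ratio and the Tmsb10 share both contain the Tmsb4x reads, so they are not independent results. On the log2 scale the means were 4.82 ± 0.46 (SD, n = 3) in WT, 3.58 ± 1.22 (SD, n = 6) in dystrophic and 4.75 ± 0.66 (SD, n = 6) in hypertrophic libraries. Dystrophic libraries differed by -1.24 from WT (exact permutation p = 0.143, adjusted p = 0.214), and hypertrophic ones by -0.071 from WT (exact permutation p = 0.833) and by 1.17 from dystrophic ones (exact permutation p = 0.0671, adjusted p = 0.214). Without the 6 libraries of disagreeing numbers, dystrophic libraries differed by -2.14 from WT and hypertrophic by 2.40 from dystrophic ones, each with exact permutation p = 0.1, the smallest possible there.

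The genes whose levels were most like Tmsb4x over the libraries were led by a platelet gene. Among 167 other genes counted in all 15 libraries, Pearson's r of log2(CPM + 1) with Tmsb4x was highest for Pf4 (0.94), which codes for platelet factor 4, a chemokine of platelet granules. Ctla2a followed with r = 0.89, then Gng11, a G protein gamma subunit, with 0.87, 1810058I24Rik with 0.86 and Nrgn, a calmodulin-binding protein, with 0.86. The median r over the 167 genes was 0.011, and CPM values of a library share one total. Tmsb4x had 4.45, 4.71 and 4.72 reads per Pf4 read in WT replicates 1, 2 and 3, from 4.65 to 6.05 in dystrophic and from 3.77 to 9.05 in hypertrophic libraries. These ranges overlapped and are given without a test, because Pf4 was picked for its likeness.

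For Tmsb10 the 5 most alike were Rps25 (r = 0.78), Rpl36a, Arhgdib, Eif1 and Rpl8 (r = 0.62), of which 3 are ribosomal proteins and Eif1 is a translation initiation factor. By rank these likenesses were lower, with a Spearman correlation of 0.325 for Rps25 and at most 0.482, for Arhgdib. The level of Tmsb10 did not go with that of Tmsb4x over the 15 libraries (Pearson's r = -0.011, Spearman correlation 0.204, permutation p = 0.968 and 0.464).

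Platelet markers were examined as a group of 7 genes named for platelets and their precursors, Pf4, Ppbp, Itga2b, Gp1bb, Gp9, Treml1 and Tubb1. Their summed level was 28758, 26645 and 18377 CPM in WT replicates 1, 2 and 3, 9664 to 20525 CPM in dystrophic and 14295 to 33637 CPM in hypertrophic libraries, and none of the 7 was at 0 throughout a condition. Over the 15 libraries, Tmsb4x correlated with this sum with r = 0.795 (permutation p = 0.00044, adjusted p = 0.00396 over 9 relations) and a Spearman correlation of 0.736 (permutation adjusted p = 0.0196). Pf4, the gene most like Tmsb4x, made up a median of 27.6% of the sum, and the call rests on it: with the other 6 markers alone, an alternative chosen after seeing the data, r was 0.373 (permutation p = 0.169, adjusted p = 0.762). With all 7 markers but without the 2 libraries farthest from the median sum, dystrophic replicates 1 and 2, r was 0.707 (permutation p = 0.00643, adjusted p = 0.0579). The call was lost there too, though r fell less than without Pf4. Within conditions r of the 7-marker sum was 0.878 over the 6 dystrophic libraries (exact permutation p = 0.0361, adjusted p = 0.237) and 0.925 over the 6 hypertrophic libraries (exact permutation p = 0.00556, adjusted p = 0.05). Within the 9 WT and dystrophic libraries, whose counts carry the lower run of numbers, r was 0.912 (exact permutation p = 0.00138, adjusted p = 0.0125). The part of the platelet sum in the difference of Tmsb4x between conditions was not tested, and in bulk EV RNA fewer vesicles from a cell type and less RNA per vesicle cannot be told apart.

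**Figure D5:**
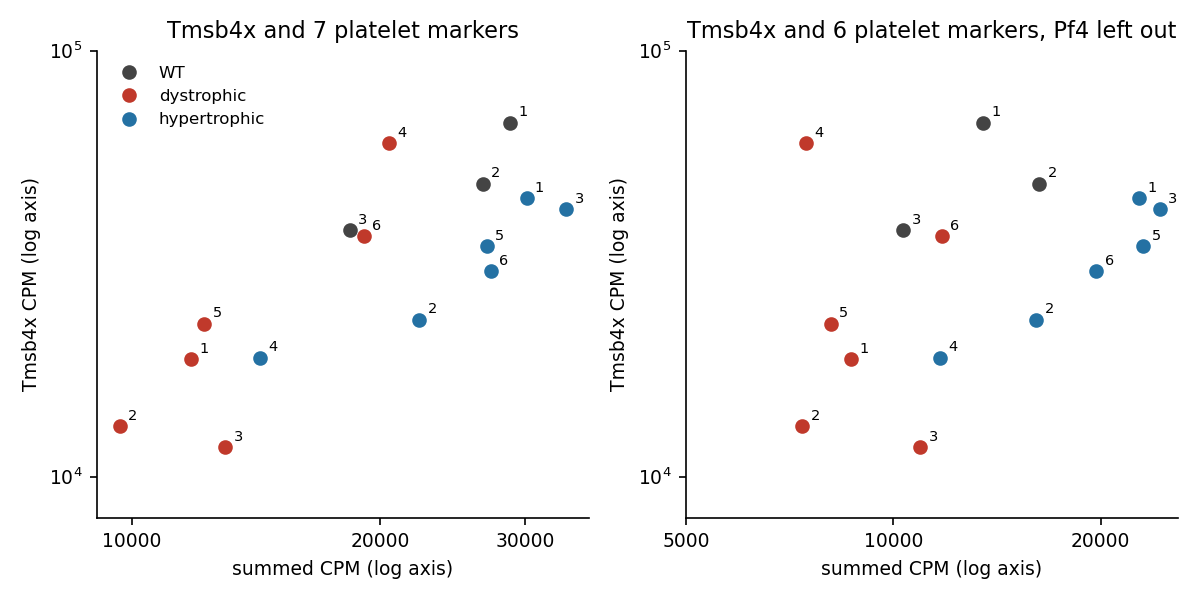
Tmsb4x in CPM against the summed CPM of all 7 platelet markers (left) and of the 6 markers other than Pf4 (right), on log axes, 1 point per library labelled by replicate number and colored by condition. Tmsb4x climbs with the sum of 7 (r = 0.795 over 15 libraries), and the points scatter more widely once Pf4 is left out (r = 0.373).

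Tmsb10 had r = 0.036 with the platelet sum over all libraries (permutation p = 0.899), 0.936 within the hypertrophic libraries (exact permutation p = 0.0236, adjusted p = 0.106) and -0.374 within the 9 WT and dystrophic libraries (exact permutation p = 0.352). The hypertrophic value includes replicate 4, with 12 Tmsb10 reads and the lowest platelet sum of that condition. The value over the 9 libraries includes WT replicate 1, with 1 Tmsb10 read. Neither was computed without that library. Whether these differ from the values of Tmsb4x was not tested. Depth gave r = 0.575 with Tmsb10 (permutation p = 0.0333, adjusted p = 0.15) and -0.192 with Tmsb4x (permutation p = 0.498), both against log10 reads on genes. By rank the value of Tmsb10 was lower, with a Spearman correlation of 0.268. The hemoglobin share of reads gave r = 0.086 with Tmsb4x and 0.055 with Tmsb10 (permutation p = 0.764 and 0.846). Erythroid markers were higher than platelet markers in most libraries, with sums of 22902 to 155950 CPM for 6 genes, most of them hemoglobins. Markers of white blood cells were lower, with sums from 6.65 to 1836 CPM for 7 neutrophil genes, 201 to 3432 CPM for 4 monocyte or macrophage genes, 0 to 955 CPM for 4 B cell genes and 0 to 454 CPM for 5 T cell genes. The skeletal muscle sum was at most 237 CPM for 6 genes, with Myh4, the fast myosin heavy chain, at 0 throughout.

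The genes around actin gave no call by edgeR beside the thymosins. Of the 13 actins and monomer-binding partners, 0 were called in any of the 3 comparisons, with 0, 1 and 1 at an unadjusted p under 0.05, each time Pfn2, and DESeq2 called Cap2 higher in both comparisons with WT, where it was at 0 in all 3 WT libraries. DESeq2 called 13.5%, 15% and 3.53% of all tested genes in the 3 comparisons, so the 1 of 13 is no more than that background. Their median log2 fold changes were 0.027, -0.36 and -0.25, beside 1.38, 0.66 and -0.52 over all tested genes. The median over all genes for dystrophic against WT changed strongly when WT replicate 2 or 3 was left out. For hypertrophic against WT it changed strongly without WT replicate 2. Of the 15 tested genes of filament nucleation, capping and turnover, edgeR called 0, with 2, 1 and 0 at p under 0.05. DESeq2 called Arpc4 and Wdr1 higher in dystrophic and Wdr1 higher in hypertrophic than in WT libraries, where both were at 0. In each comparison this share of the list was no more than the DESeq2 background of 13.5% and 15%. Arpc4 is a subunit of the Arp2/3 complex, which starts branched filaments, and Wdr1 helps cofilin to take filaments apart. Medians of this list were 0.81, 0.50 and -0.31.

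Of 7 genes for partners of thymosin beta 4 and for enzymes that cut or degrade its peptides, edgeR called 0, with 0 at p under 0.05 in all 3 comparisons, and DESeq2 called Prep, a prolyl peptidase, higher in hypertrophic than in WT libraries, 1 of 7 beside the 15% of all genes. The integrin-linked kinase Ilk was counted in 13 libraries at a median of 261 CPM, and its partner Parvb, a parvin, in 14 at a median of 419 CPM. Medians of this list were 0.20, 1.25 and 0.84. Of the 5 listed symbols of the transcription pathway that senses actin monomers, 2 were tested, Srf and its coactivator Mkl1. Neither was called by edgeR or DESeq2, with Mkl1 at p under 0.05 in 1 comparison, and their level was low, at a median of 0.905 CPM for Srf and 0 CPM for Mkl1. Their median log2 fold changes, 7.62, 8.44 and 0.82, rest on WT libraries at or near 0 and became 5.74, 6.95 and 0.82 with a gene at 0 in 1 condition placed at the limit of 3 counts over that condition.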

How the data were processed

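EV RNA of 15 libraries was amplified and sequenced as single 50-base reads. The authors aligned reads with TopHat to mm10, and the submitters' processing notes also name HTSeq and DESeq. They deposited raw counts per gene symbol, without normalization. The labels and methods differ on the library kit, so strandedness is uncertain. The 5 summary rows of each table, 57.9% to 99.2% of its numbers, were left out. Of 43472 symbols, 39544 matched GENCODE M21, from which positions, lengths and transcripts were taken. Depth was 27227 to 32563362 reads on genes.

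Genes were tested with edgeR 4.0.16 in R 4.3.3 (TMM, filterByExpr, quasi-likelihood F test, 3 conditions, no covariate, adjusted p under 0.05). DESeq2 1.42.0 was an alternative. Standard errors came from the F statistic. Permutation tests used scipy 1.17.1, where p between conditions was the smaller one-sided p times 2. Correlations drew 100000 permutations and ratios to Actb added 0.5 reads. The tests were checked on simulated data. Named genes were both thymosins, the listed actin genes and the 5 genes most like each thymosin. The members, lists and tests were chosen with earlier results of these data known.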

Additional observations from a re-analysis of the deposited data

How the results depend on the processing

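No paired analysis was possible because the labels give no replicate numbers. Tmsb4x stayed below 0 against WT in all fits run, and its calls were gained under the settings named here; no cause was tested. Without TMM scaling, its dystrophic against WT value was -0.90, and without the 6 libraries of disagreeing numbers its values against WT were -1.96 and -1.31, all called. With 1 library left out, its value ran from -1.06 to -0.49 for dystrophic against WT, and from -0.98 to -0.66 for hypertrophic against WT, called only without WT replicate 1 (edgeR adjusted p = 0.0337; over all libraries left out, 0.0337 to 0.466). Its hypertrophic against dystrophic value turned positive in 7 settings, at 0.27 with DESeq2, 0.26 without TMM, 0.042 with only those conditions, 0.11 with the run of title numbers as covariate, 0.48 with the 6 libraries exchanged, 0.64 without them and 0.43 in log2(CPM + 1), and ran from -0.31 to 0.19 with 1 library left out.

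Tmsb10 for dystrophic against WT turned positive with DESeq2 (0.32), without TMM (0.29), without a filter (0.021), with the covariate (0.11) and in log2(CPM + 1) (0.82), and ran from -0.57 to 0.33 with 1 library left out. For hypertrophic against WT it turned positive in log2(CPM + 1), at 0.19. The other settings kept its sign, and no setting called it. For hypertrophic against WT, the difference in Tmsb10 share was -0.0523 points without the 6 libraries, -0.0035 without the 2 poorest in Tmsb10, and -0.138 to 0.353 with 1 library left out (negative without WT replicate 1), while the log2 Tmsb4x to Actb difference was 0.26 without the 6 and -0.32 to 0.12 with 1 left out. Without the 6 libraries, the Tmsb10 share differed by 1.72 (dystrophic against WT) and -1.77 (hypertrophic against dystrophic), and the log2 Actb ratio by -2.14 and 2.40. Medians in place of means gave share differences of 0.627 and -0.56, and Actb with Actg1 gave 0.69 for hypertrophic against dystrophic. No ratio passed its exact permutation test after adjustment, but 3 against 3 libraries cannot go below p = 0.1 and 6 against 2 not below 0.0714, so those settings say nothing of stability.

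Counts of called genes differed between tools. DESeq2 called 933, 1031 and 243 genes in the comparisons of dystrophic with WT, hypertrophic with WT and hypertrophic with dystrophic, against 1, 2 and 1 by edgeR, and Tmsb4x and Tmsb10 were in neither set. edgeR called 0 in each without a filter (580, 1120 and 4382 at an unadjusted p under 0.05) and 0 in each without mitochondrial and hemoglobin genes (127, 529 and 815). For dystrophic against WT it called 3 without TMM, 2 with the 6 exchanged and 3 without them. For hypertrophic against dystrophic it called 0 with the 6 exchanged (344 at p under 0.05) and 0 without them (155). With 1 library left out the counts ran from 1 to 2, 1 to 3 and 0 to 2.

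Correlation of Tmsb4x with the platelet sum lost its call without the 2 farthest libraries (r = 0.707), within dystrophic (0.878) and within hypertrophic libraries (0.925), and with Pf4 out of the sum (r = 0.373, 0.386 by Spearman, 0.333 without the 2 then farthest). Within conditions r was not lower than the 0.795 over all libraries, and only 6 libraries entered each test. Other relations, none of them called, changed sign. Tmsb4x with Tmsb10 was 0.204 by Spearman, 0.258 without the 2 farthest libraries, 0.164 and 0.772 within dystrophic and hypertrophic libraries, and 0.068 without mitochondrial and hemoglobin genes. Tmsb4x with depth was 0.088 without the 2 farthest, 0.257 within dystrophic and 0.237 within hypertrophic libraries, and with genes detected 0.023 within dystrophic libraries. Tmsb10 was at -0.659 with depth and -0.813 with genes detected within dystrophic libraries, -0.011 with genes detected by Spearman, -0.374 with the platelet sum within the lower run of counts, and, with Pf4 out of that sum, -0.025 by Spearman and -0.0696 without the 2 farthest. Tmsb10 with the hemoglobin share was -0.171 by Spearman, -0.293 without the 2 farthest and -0.0013 within the lower run. The median rank of Tmsb4x was 1 without mitochondrial and hemoglobin genes, and that of Tmsb10 was 186 per kilobase of exons and 141 per kilobase of longest transcript. Depth limits Tmsb10 in WT replicate 1, at 1 read.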
